A study of Mus musculus with 6 samples.

Results

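The nuclear genes that encode the subunits of oxidative phosphorylation were compared between erythroid progenitors of wild-type and Eklf knockout mouse fetuses. The set held every gene with a probe set annotated to it alone whose symbol names a subunit of complexes I to V by its prefix (Ndufa, Ndufb, Ndufc, Ndufs, Ndufv, Sdha to Sdhd, Uqcr, Cyc1, Cox4 to Cox8 and Atp5). This gave 91 of the 18193 genes on the array, read by 180 of 45101 probe sets. Of these genes 34 belong to complex I, 4 to complex II, 9 to complex III, 19 to complex IV and 17 to complex V, and the prefixes also took in 8 complex I assembly factors (Ndufaf genes). Ndufa4 and its relative Ndufa4l2 were counted with complex IV, of which Ndufa4 is a subunit. Cox7b, Ndufa11 and Ndufs6 were not analysed here as members.

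The inner mitochondrial membrane carries 4 respiratory complexes and the ATP synthase. Complex I oxidises NADH and complex II oxidises succinate, complex III passes the electrons from coenzyme Q to cytochrome c, complex IV gives them to oxygen, and complex V uses the resulting proton gradient to make ATP. Most subunits are encoded in the nucleus, and a core few in the mitochondrial genome. Erythroid progenitors hold active mitochondria, which also carry out the first and last steps of haem synthesis, and red cells lose them as they mature.

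Each array was hybridised with RNA from cells sorted by flow cytometry from the liver of 1 fetus at embryonic day 13.5, 3 labelled wild type and 3 labelled as the homozygous Eklf knockout. The labels give the strain C57BL/6 for both groups. They trace the knockout to a published line, which was built from genomic clones of mouse strain 129 and injected into C57BL/6 blastocysts. The sort used 7AAD, a dye for dead cells, and antibodies to CD71 and Ter119, and aimed at early erythroid progenitors. Eklf, whose gene symbol is Klf1, is an erythroid zinc finger factor that binds CACCC boxes, and its loss in all cells of the fetus is lethal through failed red cell maturation. The study asked how transcripts of early erythroid progenitors differ without it.

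The probe set for Klf1 did not separate the groups. Its signal was 2508, 2706 and 4030 on the wild-type arrays and 3505, 1391 and 2545 on the knockout arrays (two-sided exact permutation p = 0.5, where 3 arrays against 3 allow no p under 0.1). Whether the probe set lies in the deleted part is not given in the sources used here, so it checks no label, and each array is named here by its label. Every array had been scaled to a trimmed mean signal of 500, while the median signal was 97.7 to 140 on the wild-type arrays and 204 to 218 on the knockout arrays. Marker lists also moved with the groups. All 7 tested erythroid markers were higher on the knockout arrays, where their summed signal was 86787 to 142593 against 16592 to 16787. All 9 hepatocyte markers were higher (98256 to 164699 against 7878 to 8677), as were 5 of 5 megakaryocyte markers (27646 to 36317 against 6255 to 7141), 6 of 6 endothelial and stromal markers (12563 to 18065 against 1212 to 1349) and 5 of 7 macrophage markers, with 1 lower (10458 to 13294 against 10273 to 12499). Lower were 6 of 6 stem and progenitor markers (6650 to 7384 against 23343 to 24094), 5 of 5 lymphoid markers (431 to 808 against 19316 to 31329) and 2 of 5 neutrophil markers (76214 to 162727 against 112888 to 128886). Of these lists only C1qa and Cd3e fell under the intensity filter (a signal of 98.6 on average over the arrays), and no signal in the deposited table was 0. C1qc, Cdh5, Col1a1, Dcn and Fgb were above the filter only through the knockout arrays, and Cd79a, Rag1 and Vpreb1 only through the wild-type arrays. For these genes the filter itself favoured a difference. Both groups thus read markers of other cell types beside erythroid ones. Lymphoid markers read higher on the wild-type arrays, and hepatocyte, megakaryocyte, and endothelial and stromal markers higher on the knockout arrays. Neutrophil markers were read in both groups, with a median difference of 0.020. In such bulk samples fewer cells of a type and less RNA per cell cannot be told apart. The part of these differences in the results on the subunit genes was not tested.

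With the deposited signals the oxidative phosphorylation genes as a whole shifted little, and the complexes went different ways. Both readings depended on the scaling of the arrays, as given below. Of 89 tested genes 14 passed as higher and 13 as lower on the knockout arrays, and 62 did not pass. A gene passed when limma's p, adjusted by the Benjamini-Hochberg method over all 12799 genes tested, was under 0.05. Ndufb4 and Cox7a1, both counted as higher, were above the intensity filter only through the knockout arrays. The filter itself thus favoured a difference in that direction. Without them 12 of 87 passed as higher and 13 as lower. The 27 genes are 30.3% of those tested, against 48.7% of all genes on the array that passed in either direction, 27.9% as higher and 20.8% as lower. The members' median difference, knockout minus wild type on the log2 scale, was 0.033, against 0.14 for all genes tested. A difference within 1.5-fold was seen for 68 members (76.4%) and for 44.2% of all genes tested. A difference of 2-fold or more was seen for 5 members (5.62%) and for 33.6% of all genes. All genes include many dimmer ones, and these shares were not taken for genes of like brightness. The groups did not overlap for 38 of 89 members, against 59.3% of all genes.

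Most of these genes were bright, and 77 of the 89 had a wild-type mean signal over 1000. Differences went with brightness in this data set. Of the 3199 brightest genes 50.4% passed, 15.1% as higher and 35.3% as lower, with a median of -0.25. The 74 members among them gave 10 higher, 12 lower and a median of 0.047.

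**Figure D1:**
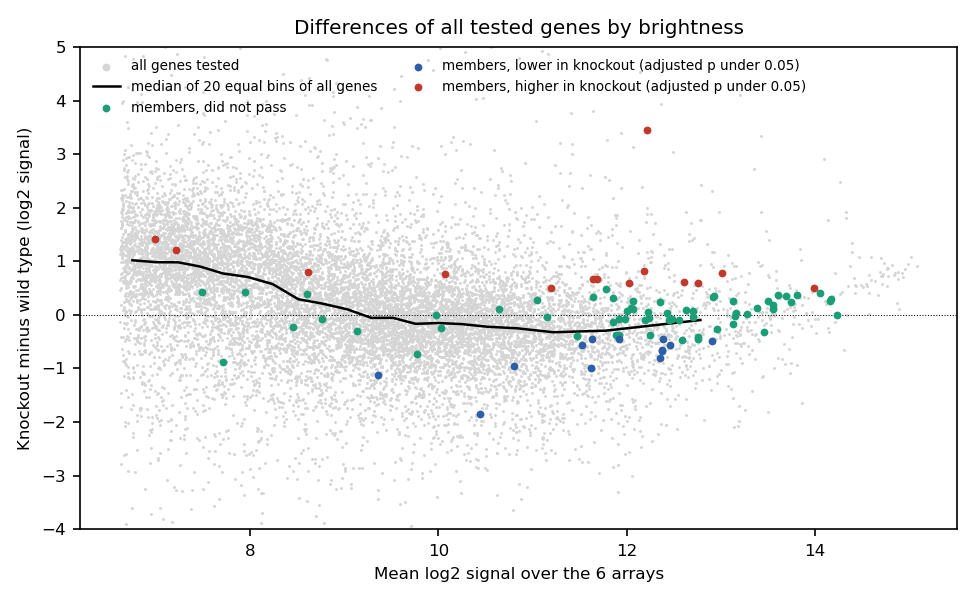
Difference between groups (log2 signal, knockout minus wild type) against mean log2 signal for all 12799 tested genes (grey), with the running median over 20 equal bins (black line) and the 89 tested oxidative phosphorylation genes coloured by whether they passed. Most members sit at the bright end, where the running median of all genes lies below 0; 49 genes lie outside the axis from -4 to 5.

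Wild-type array 3 stood apart from the other arrays of its group. It gave the highest of the 3 wild-type signals for 78 of the 89 members, while the highest knockout signal fell on array 1 for 29 members, on array 2 for 25 and on array 3 for 35. Relative to the wild-type mean, the members' mean log2 signal was -0.083, -0.10 and 0.19 on the wild-type arrays and 0.019, 0.052 and 0.073 on the knockout arrays. Without wild-type array 3, 21 members passed as higher and 12 as lower. Leaving out wild-type array 1 gave 8 higher and 12 lower, wild-type array 2 gave 7 and 11, knockout array 2 gave 8 and 10, and knockout array 3 gave 7 and 9. Of the 27 genes that passed, 15 passed in each of the 6 fits that left out 1 array.

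The scaling of the arrays set the direction of several complexes. With the deposited signals 3571 of all genes passed as higher and 2661 as lower, with quantile normalization 2224 and 2740, with cyclic loess 2292 and 2658, and with each array centred on its median 1085 and 6133. The median of all genes was 0.14, -0.024, 0.0038 and -0.68 in that order. The members gave 14 higher and 13 lower as deposited, 19 and 12 with quantile normalization, 28 and 8 with cyclic loess, and 1 and 50 with median centring. Their median was 0.033, 0.12, 0.20 and -0.78 in that order. Of the 27 members that passed, 7 of those lower and 1 of those higher passed the same way under all 3 other scalings. The medians of the complexes were also read relative to the median of all genes. That reference includes dim genes, and as deposited the 3199 brightest genes had a median of -0.25, against 0.14 for all. Median centring cannot change this relative median, because it shifts all genes of an array alike. For the deposited signals, quantile normalization and cyclic loess in turn, this relative median was 0.20, 0.52 and 0.56 for complex III and 0.24, 0.14 and 0.45 for complex IV. It was -0.56, -0.16 and -0.19 for complex II and -0.42, -0.56 and -0.54 for the assembly factors. Complex I (-0.21, 0.17 and 0.15) and complex V (-0.074, 0.17 and 0.29) changed sides. Complex III also changed sides with the mean of all probe sets (-0.12) and with no filter on dim genes (-0.048).

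**Figure D2:**
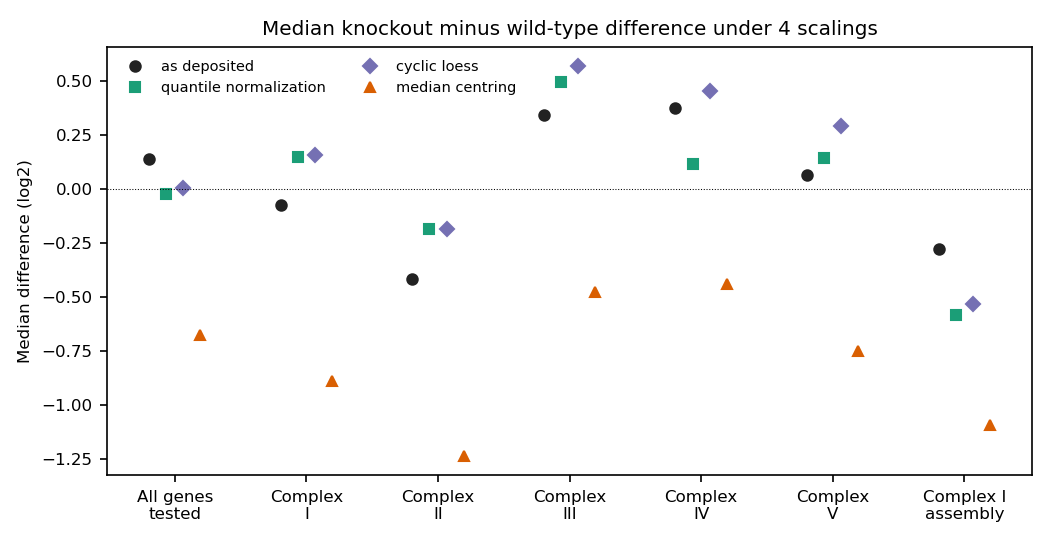
Median difference (log2, knockout minus wild type) of all genes tested, of each complex and of the complex I assembly factors, under 4 scalings of the arrays (markers). The medians of complexes I, III, IV and V change sign with the scaling, those of complex II and the assembly factors stay below 0, and median centring lowers every group.

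**Figure D3:**
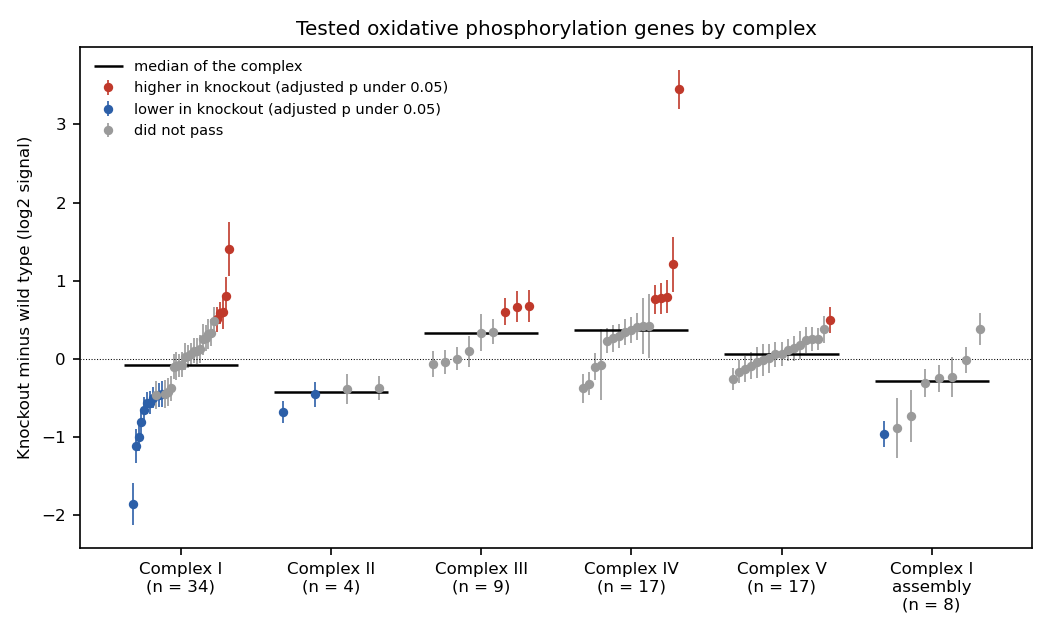
Difference of each tested gene (log2 signal, knockout minus wild type, as deposited; bars are the standard error of limma's fit with 3 arrays per group) by complex, with the median of the complex as a line. Complex I spreads to both sides, complex II lies below 0, and complexes III and IV lie mostly above it; the signs of the medians of complexes I, III, IV and V depend on the scaling.

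Complex I, the NADH dehydrogenase, held 10 of the 13 members that passed as lower. Of its 34 tested genes 5 passed as higher and 10 as lower, 44.1% in all, near the 48.7% of all genes. The balance of these counts turned with the scaling, with 9 higher and 7 lower under quantile normalization, 8 and 5 under cyclic loess and 0 and 23 under median centring. The median difference was -0.075 as deposited and 0.14, 0.15 and -0.89 in that order. The complex is shaped like an L, with a matrix arm that takes the electrons and a membrane arm that pumps protons. After the values were seen, its genes were split by arm. Of 14 matrix arm genes 4 passed as higher and 1 as lower (35.7% in all), with a median of 0.19. Of 19 membrane arm genes 1 passed as higher and 9 as lower (52.6% in all), with a median of -0.45. Among these 19 genes 17 had a wild-type mean signal over 1000. The 3199 brightest genes of the array had a median of -0.25, and 35.3% of them passed as lower. Ndufab1, whose product sits in both arms, had a difference of -0.078 and did not pass. Relative to the median of all genes, the membrane arm was at -0.58, -0.19 and -0.22 with the deposited signals, quantile normalization and cyclic loess. The matrix arm was at 0.054, 0.46 and 0.42, but at -0.054 without wild-type array 2, where 1 of its genes passed as higher, and at -0.20 with no filter on dim genes. Knockout array 2 left out also gave 1 higher in the matrix arm, and wild-type array 1 or knockout array 3 left out gave 2. As the arms were chosen after the values were seen, this is a description.

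**Figure D4:**
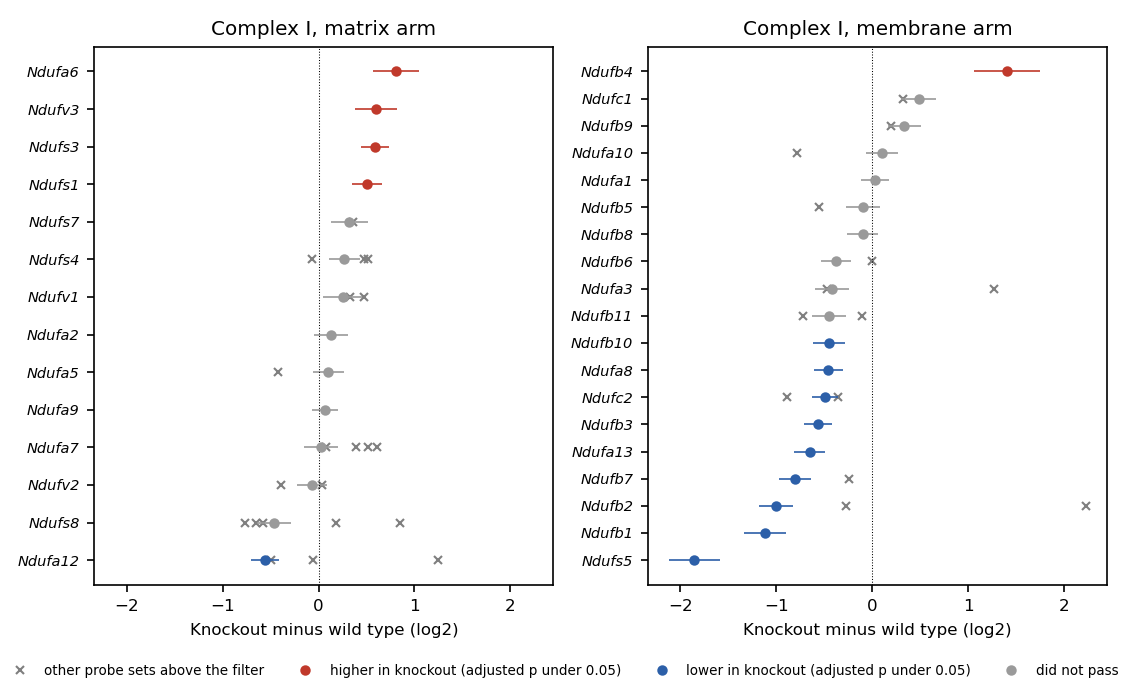
Complex I genes by arm, with the difference at the brightest probe set (circle, bar the standard error; log2 signal, knockout minus wild type) and at other probe sets above the intensity filter (crosses). The membrane arm holds 9 of the 10 genes that passed as lower, and probe sets of 1 gene can lie on both sides of 0; the signs of single genes depend on the scaling of the arrays, and Ndufab1, which belongs to both arms, is not drawn.

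Ndufs5, a small accessory subunit of the membrane arm that lies towards the intermembrane space, fell the most of all members. Its signal was 2366, 2518 and 3134 on the wild-type arrays and 1011, 825 and 476 on the knockout arrays. All knockout arrays lay below all wild-type arrays. The difference was -1.85 ± 0.27 (SE, n = 3 per group, adjusted p = 0.000627), or 3.61-fold lower, and it passed in the same direction in all 18 alternative fits. The probe set shared by Ndufs5 and its pseudogene Ndufs5-ps, which is no member, gave a difference of -0.35, from a mean of 1535 to one of 1205. The promoter of Ndufs5 is shown because this is the member that fell most. It covers the 250 bases before the start in RefSeq's annotation of GRCm38.p6 (chr4:123718187-123718436, minus strand), and the capitals mark a match to the recognition letters of NRF1, an activator of many nuclear genes of the respiratory chain.
Ndufs5: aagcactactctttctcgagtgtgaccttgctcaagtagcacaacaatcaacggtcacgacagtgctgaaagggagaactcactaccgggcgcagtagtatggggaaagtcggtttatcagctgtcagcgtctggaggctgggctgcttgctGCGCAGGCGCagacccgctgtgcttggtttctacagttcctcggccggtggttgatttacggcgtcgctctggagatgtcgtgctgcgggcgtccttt

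The other membrane arm genes that fell most were also accessory subunits. Ndufb1 went from 1064, 979 and 874 on the wild-type arrays to 441, 576 and 353 on the knockout arrays, a difference of -1.12 ± 0.22 (SE, adjusted p = 0.00308), with no overlap. Ndufb2 went from 3997, 4125 and 5402 to 2559, 1932 and 2259, a difference of -1.0 ± 0.18 (adjusted p = 0.00187), also with no overlap. Other probe sets of Ndufb2 gave -0.28 and 2.23, the latter on a dim one with means of 105 and 332, and the mean over its probe sets was 0.32. Ndufb7 went from 6123, 6680 and 8148 to 4524, 3494 and 3939, a difference of -0.81 ± 0.17 (adjusted p = 0.00423). Each of these genes, like Ndufs5, had all knockout arrays below all wild-type arrays and passed under all 3 other scalings. Ndufa13, which encodes the subunit also known as GRIM-19, did so too, at -0.65 (6703 ± 1146 to 4232 ± 139, mean ± SD). The remaining membrane arm genes that passed as lower were Ndufb3 (-0.56), Ndufc2 (-0.49), Ndufa8 (-0.46) and Ndufb10 (-0.45).

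Several of those calls were close to the threshold. Ndufb10 passed with an adjusted p of 0.0494, and it passed in none of the 6 fits without 1 array (0.0549 to 0.119). Ndufa8 lost its call without wild-type array 1, knockout array 2 or knockout array 3 (adjusted p = 0.0731, 0.061 and 0.0976). The products of Ndufs5, Ndufa8, Ndufb7 and Ndufb10 are known to share a fold held by paired cysteines on the intermembrane side of complex I, and all 4 passed as lower, a grouping made after the values were seen. For comparison, 9 of the 19 membrane arm genes, 20.8% of all genes and 35.3% of the 3199 brightest genes passed as lower. The 4 genes are thus given as a description only. With quantile normalization Ndufa8 (-0.21) and Ndufb10 (-0.20) kept the direction without passing.

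The exception in the membrane arm was Ndufb4, which read higher on a dim probe set. Its signal was 85.6, 87.3 and 63.2 on the wild-type arrays, all under the filter signal of 98.6, and 176, 226 and 222 on the knockout arrays. It was tested only through the knockout arrays, so its difference of 1.41 is given as a description. The brighter probe sets listed with Ndufb4 and its copies Ndufb4b and Ndufb4c gave -0.35 (means of 3862 and 3026) and 0.31 (means of 2076 and 2590). It did not pass under any of the 3 other scalings, where the difference was 0.54 to 0.59. The level of Ndufb4 is thus uncertain, since its copies could share the transcripts read.

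In the matrix arm, 4 genes passed as higher. Ndufs3, a core subunit next to the site where coenzyme Q is reduced, read 3138, 3269 and 3812 on the wild-type arrays and 4974, 5032 and 5292 on the knockout arrays, with no overlap (0.59 ± 0.14, adjusted p = 0.00906). Ndufs1, the large core subunit that carries iron-sulphur clusters, read 2173, 1821 and 1939 against 2745, 3164 and 2543 (0.51 ± 0.16, adjusted p = 0.0238). Its call was lost without wild-type array 2 (adjusted p = 0.0932) or knockout array 2 (0.0897). Ndufa6 (0.81, adjusted p = 0.0206) and Ndufv3 (0.60, adjusted p = 0.0473), accessory subunits of this arm, passed although their groups overlapped. Wild-type array 3 read 4504 for Ndufa6 and knockout array 1 read 4376, and the same arrays read 7111 and 6377 for Ndufv3. Both lost their calls without wild-type array 1 or 2 or knockout array 2 or 3 (adjusted p = 0.0597 to 0.0821 for Ndufa6, and 0.131 to 0.159 for Ndufv3). With median centring all 4 had a difference below 0 that did not pass, from -0.31 for Ndufs1 to -0.0043 for Ndufa6.

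Other core subunits of the matrix arm on the array did not pass. Ndufs7 was at 0.32, Ndufv1 at 0.25 and Ndufv2 at -0.071, and the groups of each overlapped. Another probe set of Ndufs7 gave 0.36, and those of Ndufv2 gave -0.39 and 0.034. Those of Ndufv1 gave 0.33 and 0.48, and the latter passed as higher when probe sets were tested singly (adjusted p = 0.0498). Ndufs8 read -0.46 at its brightest probe set (adjusted p = 0.0588), and its other probe sets gave -0.76 to 0.85. The 1 matrix arm gene that passed as lower was Ndufa12, an accessory subunit, at -0.56 (6862 to 4659). Its call was lost without knockout array 3 (adjusted p = 0.0514), and its other probe sets gave -0.50, -0.061 and, on a dim one, 1.25.

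Of the 8 complex I assembly factors 1 passed as lower (12.5%, against 20.8% of all genes) and none as higher. Their median of -0.28 stayed below 0 under all 4 scalings. Ndufaf8, an assembly partner of Ndufaf5, read 2319, 2369 and 2846 on the wild-type arrays and 1155, 1300 and 1413 on the knockout arrays, with no overlap (-0.96 ± 0.16, SE, adjusted p = 0.00141). It passed as lower in all 18 alternative fits. The other factors ran from -0.88 to 0.39. Ndufaf6 (-0.88, adjusted p = 0.0827) and Ndufaf4 (-0.73, adjusted p = 0.0992) had the next largest differences, and their groups overlapped.

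Complex II, succinate dehydrogenase, also serves the citric acid cycle and has no subunit from the mitochondrial genome. All 4 of its genes read lower on the knockout arrays, and 2 passed (50%). Of all genes 20.8% passed as lower, and of the 3199 brightest genes 35.3%. Sdha, the flavoprotein that oxidises succinate, read 6394, 6258 and 7545 on the wild-type arrays and 4296, 4117 and 4177 on the knockout arrays. Every knockout array lay under every wild-type array, and the difference was -0.68 ± 0.14 (SE, adjusted p = 0.00439), or 1.6-fold lower. It passed as lower under all 3 other scalings. Sdhd, which anchors the enzyme in the membrane, read 5485, 6110 and 7367 against 4380, 4486 and 4910 (-0.45 ± 0.16, adjusted p = 0.0391), again with no overlap. Sdhd did not pass with quantile normalization (-0.23, adjusted p = 0.14) or cyclic loess (-0.22, adjusted p = 0.203).

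Sdhb, the iron-sulphur subunit, read 5220, 5139 and 6338 against 4617, 3956 and 4298. The groups did not overlap, and the difference of -0.37 ± 0.15 did not pass (adjusted p = 0.0678). Sdhc, the other anchor, read 3056, 2775 and 4015 against 2932, 2473 and 2102, which overlap (-0.39 ± 0.19, adjusted p = 0.122). The call of Sdhd was lost in 5 of the 6 fits without 1 array, the exception being the fit without wild-type array 1 (adjusted p of those lost, 0.066 to 0.103). Another probe set of Sdhd gave 0.52. Those of Sdha gave -0.34, 0.94 on a dim one, and 0.47 on one under the intensity filter (means of 9.52 and 14.4). Over the mean of all probe sets, which takes in the one under the filter, Sdha was at 0.098, and Sdhd was at 0.033. The promoter of Sdha is shown since its gene passed as lower and its 250 bases (GRCm38.p6, chr13:74350241-74350490, minus strand) hold 3 matches to the NRF1 letters, in capitals.
Sdha: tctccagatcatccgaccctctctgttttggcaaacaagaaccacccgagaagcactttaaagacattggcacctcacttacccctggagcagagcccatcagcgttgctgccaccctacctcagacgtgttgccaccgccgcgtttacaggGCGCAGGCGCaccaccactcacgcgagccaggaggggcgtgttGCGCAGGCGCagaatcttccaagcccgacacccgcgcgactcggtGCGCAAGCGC

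Complex III, the cytochrome bc1 complex, had 3 genes of 9 that passed as higher (33.3%) and none lower. Of all genes 27.9% passed as higher and 20.8% as lower. Among the 3199 brightest genes these shares were 15.1% and 35.3%, and all 9 genes had a wild-type mean signal over 1000. The counts of complex III were 5 and 1 with quantile normalization, 4 and 0 with cyclic loess and 0 and 3 with median centring. The median was 0.34, and it was 0.49 with quantile normalization, 0.57 with cyclic loess and -0.48 with median centring. The 3 encode small subunits. Uqcrh, the acidic hinge protein near cytochrome c1, read 4631, 4355 and 6437 on the wild-type arrays and 7225, 7689 and 8267 on the knockout arrays (0.61 ± 0.18, SE, adjusted p = 0.0193). Uqcrq, also called the ubiquinone-binding protein, read 2609, 1895 and 3289 against 4340, 3876 and 3937 (0.68 ± 0.20, adjusted p = 0.022). Uqcr10 read 2467, 2302 and 3145 against 3612, 3691 and 5381 (0.67 ± 0.20, adjusted p = 0.0218). For none of the 3 did the groups overlap.

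These calls were sensitive to single arrays and to the probe set. Uqcrh lost its call without wild-type array 1 or 2 or knockout array 2 or 3 (adjusted p = 0.0546 to 0.0837). Uqcrq lost it without wild-type array 2 or knockout array 1, 2 or 3 (0.0515 to 0.0837), and Uqcr10 without wild-type array 1 or 2 or knockout array 3 (0.0661 to 0.0859). The dimmer probe sets of Uqcr10 went the other way, with differences of -2.84 (433 to 63.6) and -0.81 (797 to 472), both of which passed when every probe set was tested on its own. Complex III had 4 genes higher without wild-type array 3, 2 without knockout array 1, 1 without wild-type array 1 or knockout array 2, and none without wild-type array 2 or knockout array 3, and none lower in any of these fits.

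The core subunits of complex III that carry its electrons or bind its partners did not pass. Cyc1, cytochrome c1, read 6961 ± 1012 on the wild-type arrays and 8828 ± 771 on the knockout arrays (0.35, adjusted p = 0.0962). Uqcrfs1, the Rieske iron-sulphur protein, was at -0.059, and the core proteins Uqcrc1 and Uqcrc2 were at 0.098 and -0.036. Uqcrb read 17410, 19171 and 21050 against 19212, 18356 and 20159, a difference of 0.0057 with a 95% interval from -0.32 to 0.33. The promoter of Uqcrh is shown as one of a gene that passed as higher (GRCm38.p6, chr4:116075071-116075320, minus strand), and the capitals mark a match to the letters bound by ETS factors such as GABPA, which also serve nuclear respiratory genes.
Uqcrh: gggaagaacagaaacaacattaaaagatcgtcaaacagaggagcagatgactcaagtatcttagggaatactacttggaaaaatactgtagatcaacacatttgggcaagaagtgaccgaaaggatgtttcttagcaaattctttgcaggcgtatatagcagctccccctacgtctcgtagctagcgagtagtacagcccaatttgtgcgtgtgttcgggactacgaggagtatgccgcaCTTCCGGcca

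Complex IV, cytochrome c oxidase, held the largest difference among the members. Of its 17 tested genes 5 passed as higher (29.4%) and none as lower. The first share is near the 27.9% of all genes that passed as higher, and 20.8% of all genes passed as lower. Among the 3199 brightest genes these shares were 15.1% and 35.3%, and 11 of the 17 genes had a wild-type mean signal over 1000. The counts were 3 higher and 1 lower with quantile normalization, 9 and 0 with cyclic loess, 1 and 3 with median centring, 11 and 0 with array weights and 8 and 0 without knockout array 1. The median was 0.37, with 0.12 under quantile normalization, 0.45 under cyclic loess and -0.44 under median centring. Several of its subunits come in a form used broadly and a form used in few tissues. Of 6 tested genes for forms of restricted use 4 passed as higher (66.7%), with a median of 0.78. Of 11 broadly used genes 1 passed as higher (9.09%), with a median of 0.29. These sets also differed in brightness, with a wild-type mean signal over 1000 for 1 of the 6 and 10 of the 11. Differences went with brightness in this data set, with a median of -0.25 for the 3199 brightest genes and 0.14 for all. The part of brightness in the contrast was not tested. Without Cox7a1, which was tested only through the knockout arrays, 3 of 5 restricted forms passed, with a median of 0.77. This contrast depended on the settings: cyclic loess gave 2 of 6 restricted and 7 of 11 broad genes higher (medians of 0.42 and 0.45), array weights 4 and 7, and quantile normalization 2 and 1, with 1 broad gene lower. Median centring gave 1 restricted gene higher and 3 broad genes lower.

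Cox6b2, the form of subunit 6b known from testis, read 1283, 1085 and 2113 on the wild-type arrays and 12913, 16499 and 18076 on the knockout arrays. The lowest knockout array was several times the highest wild-type array. The mean went from 1494 ± 546 to 15829 ± 2646 (SD, n = 3), a difference of 3.45 ± 0.25 (SE, adjusted p = 1.63e-05), or 10.9-fold higher by the means of the log2 signals. It passed as higher in all 18 alternative fits, at 3.42 with quantile normalization, 3.68 with cyclic loess and 2.64 with median centring. The broadly used form, Cox6b1, read 11807, 11966 and 14213 against 12731, 15671 and 16466, a difference of 0.24 ± 0.16 that did not pass (adjusted p = 0.247) and whose groups overlapped. Signals of different probe sets are not on 1 scale, so the levels of the forms are not set against each other. In this comparison the 9 hepatocyte markers also rose, with summed signals of 7878 to 8677 on the wild-type arrays and 98256 to 164699 on the knockout arrays, as did the 7 erythroid markers (16592 to 16787 and 86787 to 142593). Their part in the difference of Cox6b2 was not tested. The promoter of Cox6b2 (GRCm38.p6, chr7:4753095-4753344, minus strand) is shown because the member changed most, and the capitals mark 4 matches to the CACCC letters on either strand, some of them overlapping.
Cox6b2: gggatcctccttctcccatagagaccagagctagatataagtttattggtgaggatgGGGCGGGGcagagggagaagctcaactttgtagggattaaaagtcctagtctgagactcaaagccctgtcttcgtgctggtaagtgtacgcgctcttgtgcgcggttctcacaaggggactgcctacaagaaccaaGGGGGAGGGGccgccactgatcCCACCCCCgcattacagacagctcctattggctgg

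The other forms of restricted use were dim to moderate. Cox8c, known from testis, read 817, 893 and 766 on the wild-type arrays and 1249, 1737 and 1270 on the knockout arrays (0.77 ± 0.19, SE, adjusted p = 0.00842). Cox6a2, the heart and muscle form of subunit 6a, read 293, 333 and 267 against 459, 493 and 607 (0.80 ± 0.22, adjusted p = 0.0138). Cox7a1, the heart and muscle form of subunit 7a, read 76.7, 95.5 and 127 against 173, 234 and 284. Its wild-type mean log2 signal of 6.61 was just under the filter of 6.62, so its difference of 1.21 is given as a description. The knockout arrays were all above the wild-type arrays for each of them.

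At these levels the scaling mattered. With quantile normalization Cox6a2 was at 0.45 and Cox7a1 at 0.42, and neither passed. With median centring Cox8c was at -0.048, Cox6a2 at -0.016 and Cox7a1 at 0.40. Cox8b, the muscle form of subunit 8, fell under the intensity filter and was not tested, with signals of 4.87, 20.6 and 8.41 against 33.1, 94.1 and 134. Cox7b2 was also under it, with means of 9.91 and 10.1. Of 5 heart and skeletal muscle markers only Ckm was above the filter, and it passed as higher (0.98), while Actn2, Myh6, Myl2 and Tnnt2 were under it, and the summed signal of the list was 316 to 446 on the wild-type arrays and 632 to 989 on the knockout arrays.

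Of the forms that did not pass, Cox4i2, known from lung and from low oxygen, had a mean of 160 ± 53.7 on the wild-type arrays and 214 ± 65.2 on the knockout arrays (0.42, adjusted p = 0.351). Ndufa4l2, a relative of Ndufa4 known to respond to low oxygen, read 326, 348 and 778 against 219, 598 and 583 (-0.070, adjusted p = 0.906), with spread inside both groups. Ndufa4 itself was at -0.097 (6291 ± 1307 to 5806 ± 259).

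Among the broadly used subunits, Cox8a read 5192, 5839 and 8342 on the wild-type arrays and 9528, 11993 and 11106 on the knockout arrays. The groups did not overlap, and it passed as higher (0.78 ± 0.20, SE, adjusted p = 0.0108), also in each fit without 1 array, but not with median centring (-0.040). Cox4i1, a large regulatory subunit, was at 0.27 (10700 ± 2032 to 12769 ± 1404, adjusted p = 0.233). Cox6a1 was at 0.41 (14740 ± 1438 to 19800 ± 3455, adjusted p = 0.0738), and Cox7a2 at 0.29 (16712 ± 1776 to 20433 ± 1736, adjusted p = 0.138). Cox7a2l, which helps to join respiratory complexes into larger assemblies, was at -0.37 (4358 ± 791 to 3360 ± 556, adjusted p = 0.126). Cox5a, a subunit on the matrix side, read 11899, 11654 and 14359 against 10833, 9445 and 10150. Its groups did not overlap, and it did not pass (-0.31, adjusted p = 0.111), while it passed as lower with quantile normalization (-0.37, adjusted p = 0.0219) and median centring (-1.13), and its other probe sets gave -0.54 and -0.39. Cox6c gave 0.37 at its brightest probe set (adjusted p = 0.093) and -0.87 at another (6039 to 3313), which passed when probe sets were tested singly.

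Complex V, the ATP synthase, had 1 gene of 17 that passed as higher (5.88%) and none lower with the deposited signals. Of all genes 27.9% passed as higher and 20.8% as lower. Among the 3199 brightest genes these shares were 15.1% and 35.3%, and all 17 genes had a wild-type mean signal over 1000. The counts were 2 and 0 with quantile normalization, 7 and 0 with cyclic loess, 0 and 10 with median centring and 4 and 0 with array weights. The median was 0.065, with 0.14 under quantile normalization, 0.29 under cyclic loess and -0.75 under median centring. Atp5b, the catalytic beta subunit of the F1 head, read 12501, 12663 and 15989 on the wild-type arrays and 16996, 19848 and 21163 on the knockout arrays, with no overlap (0.50 ± 0.16, SE, adjusted p = 0.0317). The call was lost without wild-type array 1 (adjusted p = 0.122), wild-type array 2 (0.118), knockout array 2 (0.0926) or knockout array 3 (0.098), and with quantile normalization (0.0926).

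The partner of the beta subunit in the F1 head, Atp5a1, read 11219, 11741 and 15045 against 15239, 14892 and 19197 (0.38 ± 0.18, adjusted p = 0.0999). Its other probe sets went the other way, at -0.16 (7801 to 6991) and -0.53 (415 to 300), and neither passed when tested singly. The 12 genes of the stalk and membrane part ran from -0.26 to 0.25, and none passed. Atp5g1, Atp5g2 and Atp5g3 encode the same mature c subunit of the rotor. They were at -0.13 (95% interval -0.50 to 0.25), 0.0094 (-0.41 to 0.43) and 0.25 (-0.073 to 0.58), and none passed. Atp5j was the lowest of the complex at -0.26 (8722 ± 128 to 7317 ± 525, adjusted p = 0.147).

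**Figure D5:**
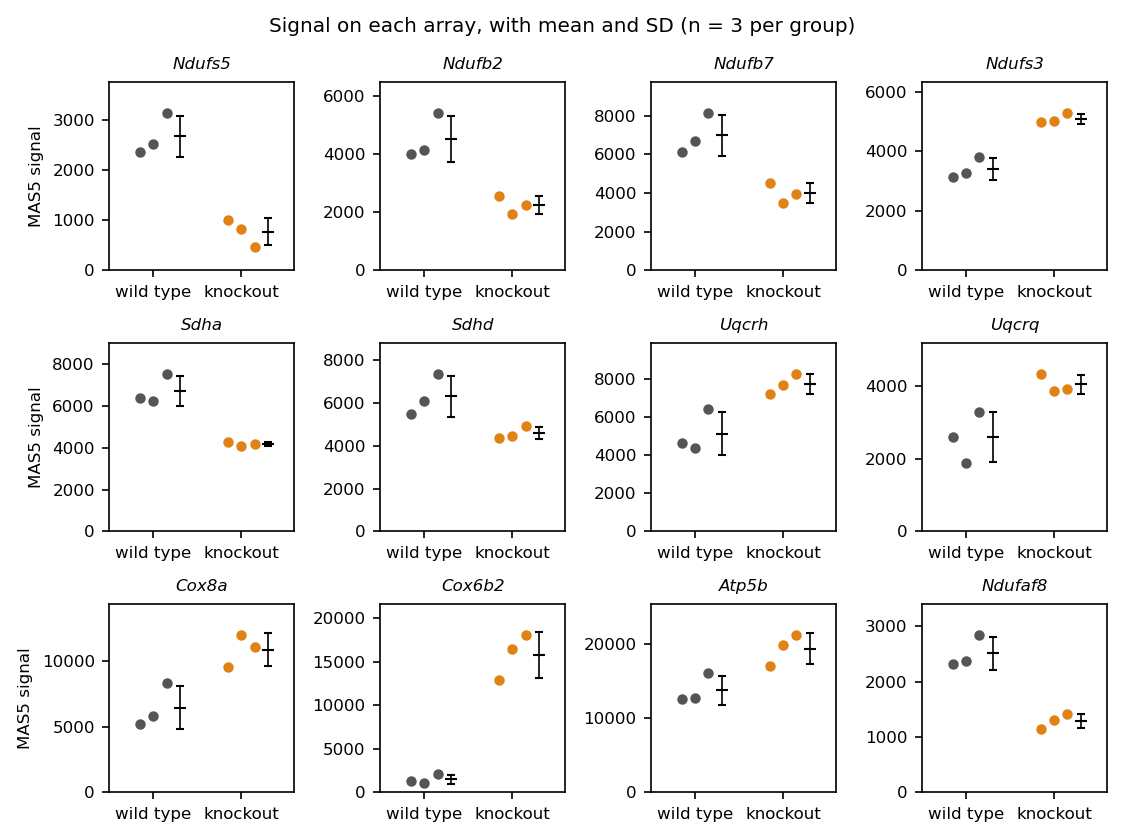
MAS5 signal (linear scale, axis from 0) on each of the 3 wild-type (grey) and 3 knockout (orange) arrays for 12 genes named in the text, with the mean and SD of each group. Cox6b2 lies between 1085 and 2113 on the wild-type arrays and between 12913 and 18076 on the knockout arrays, and wild-type array 3, the rightmost grey point, is the highest wild-type point in all 12 panels.

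Taken by probe set, 25 of the 180 passed as higher, 22 as lower and 118 did not pass, while 15 were under the filter. Over all 27023 probe sets above the filter 43.8% passed, 28.1% as higher and 15.7% as lower. Of the 91 genes 40 had 1 probe set and 51 had more. Of the 27 genes that passed, 12 had another probe set above the filter, and for 5 of them (Ndufb2, Ndufa12, Sdha, Sdhd and Uqcr10) 1 or more of those had the opposite sign.

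The wider pathway was read from lists of genes outside the rule, whose counts stand against the 27.9% of all genes that passed as higher and the 20.8% as lower. Only ND5, a core proton-pumping subunit of complex I, stood for the 13 protein genes of the mitochondrial genome. It read 15318, 20434 and 15726 on the wild-type arrays and 27666, 36224 and 45575 on the knockout arrays, with no overlap (1.07 ± 0.21, SE, adjusted p = 0.00308). Over the 18 alternative fits its difference ran from 0.26 to 1.26, and the call was lost in 3 of them. Of 36 tested assembly factors of the 5 complexes outside the rule 4 passed as higher (11.1%) and 7 as lower (19.4%). Coa5, which serves complex IV assembly, fell by 1.01 (5425 to 2720), though another of its probe sets gave 0.73. Bcs1l, which inserts the Rieske protein into complex III, fell by 0.87 (660 to 366). Cox18, which inserts a subunit of complex IV into the membrane, rose by 0.71 (879 to 1443) and Ttc19, which acts on complex III, by 1.49 (138 to 362). Other probe sets of Ttc19 gave -0.74 and 0.94.

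Of 17 genes for cytochrome c, coenzyme Q and electron transfer flavoprotein, 3 passed as higher (17.6%) and 2 as lower (11.8%). Etfb, a subunit of that flavoprotein, fell by 0.80 (8816 to 5043) and Hccs, which attaches haem to cytochrome c, by 0.72 (1533 to 919). Another probe set of Hccs went the other way (0.60) and passed as higher when probe sets were tested singly. Coq10b (0.99) and Coq8b (0.71), which serve coenzyme Q, rose. Of 22 genes of the citric acid cycle and of pyruvate entry 1 passed as higher (4.55%) and 5 as lower (22.7%). The one that rose was Pdk2 (2.02 ± 0.30, adjusted p = 0.000772), a kinase that inactivates pyruvate dehydrogenase, from 186, 142 and 281 to 585, 869 and 963. Pdk1, another such kinase, fell by 0.69 (2224 to 1403) and Idh2, mitochondrial isocitrate dehydrogenase, by 0.50 (3928 to 2768). Over the mean of all probe sets Pdk1 was at 0.66. Of 8 membrane carriers and channels 1 passed each way, namely Slc25a38, the glycine carrier of haem synthesis (1.34, 702 to 1745), and Vdac3 (-0.53, 6117 to 4241).

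The last lists hold factors that act on the nuclear subunit genes and on mitochondrial DNA. Of 12 regulators 2 passed as higher (16.7%), both tested only through the knockout arrays, and 5 as lower (41.7%). Yy1, a zinc finger factor, read 6578, 6071 and 6466 on the wild-type arrays and 3133, 3268 and 2777 on the knockout arrays (-1.06 ± 0.14, SE, adjusted p = 0.00038), and Mef2c fell by 1.5 (1607 to 553). The 2 counted as higher, the coactivator Ppargc1a (means of 71.6 and 208) and Perm1 (90.2 and 260), which works with it in muscle, had wild-type means under the filter signal of 98.6, so their values are a description. Of 15 genes for the upkeep and transcription of mitochondrial DNA none passed as higher and 4 as lower (26.7%), the latter near the share of all genes. Tfb1m, a methyltransferase of mitochondrial ribosomal RNA, read 1102, 955 and 1445 against 376, 448 and 407 (-1.49 ± 0.21, adjusted p = 0.000471). Tfam, which packs mitochondrial DNA and starts its transcription, read 1993, 1949 and 1879 against 1293, 957 and 864 (-0.92 ± 0.18, adjusted p = 0.00331).

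Letters bound by regulators of respiratory genes were searched in the 250 bases before the start, on both strands, in the promoters of RefSeq's GRCm38.p6 annotation. These were present for 74 of the 91 genes, with 79 promoters. Matches to the NRF1 consensus lay in 16.5% of the members' promoters and in 5.18% of 21263 promoters of protein-coding genes. The ETS letters CCGGAAG lay in 17.7% and 8.98%, the YY1 letters AANATGGC in 8.86% and 3.65%, and the CACCC letters CCNCNCCC in 58.2% and 52.9%. Over all 32851 promoters the shares were 3.74%, 6.91%, 3.91% and 45.9% in the same order of motifs. Of 10 promoters of members that passed as higher 6 held the CACCC letters, 1 the NRF1 letters, 2 the ETS letters and none the YY1 letters. Of 13 promoters of members that passed as lower these numbers were 7, 4, 3 and 1. A match is a run of letters only, and binding was not measured.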

How the data were processed

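Signals of 6 single-colour Affymetrix arrays were used, 3 per group, with target made from 10 micrograms of total RNA per the labels' protocols. The deposited values are intensity values, 1 per probe set on a linear scale. The submitters' processing notes name MAS5 and Affymetrix Expression Console, whose versions the sources used here do not give. In MAS5 background is subtracted and each array scaled, here to a trimmed mean of 500 after 2% was left out at each end. Bright signals that stay inside the trimmed range can therefore lower the other values of an array. No detection calls were used. The platform annotation gave 34958 probe sets 1 gene and 932 several (not used), and 9211 stay unnamed; RefSeq matched 34741.

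The floor was a signal of 1, which replaced 303 lower values, and the analysis was on the log2 scale. Each gene was read at its brightest probe set, and genes with a mean under the 40th percentile (log2 of 6.62, signal of 98.6) were left out. Groups were compared over 12799 genes with limma 3.58.1 in R 4.3.3 (lmFit, eBayes with a variance trend), and two-sided p-values were adjusted over all of them by the Benjamini-Hochberg method, with a threshold of 0.05. Every adjusted p is limma's, and intervals are 95%. The script was tested on simulated data. The labels name 1 liver per array, and 3 arrays per group limit the precision. Figures were drawn with matplotlib 3.10.9.

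The members and lists were chosen with earlier results of these data known. Named were, per complex and direction, up to 4 genes with the smallest adjusted p among those that passed without overlap, the Sdh genes, the isoform pairs and, per pathway list, up to 2 genes each way. Other names were added after their values were seen. Alternatives were other scalings, offsets of 16 and 64, other filters, variance models and probe set choices, symbols before the update, a replicate block, each array left out, and knockout array 1 alone against the wild-type arrays.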

Additional observations from a re-analysis of the deposited data

How the results depend on the processing

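With 3 arrays per group and no detection calls, small differences and dim genes are uncertain, and the cause of the changes given here was not tested. Against 14 members higher, 13 lower and 6232 of all genes passed, median centring gave 1 higher and 50 lower, cyclic loess 28 and 8, array weights 28 higher, and the mean of all probe sets 8 lower. Knockout array 1 alone against the wild-type arrays, assumed to vary like them, gave 1 higher, 4 lower and 2603 of all genes, with fewer arrays. Testing every probe set singly, a larger set of tests, gave 25 higher, 22 lower and 11838 in all. Leaving out 1 array gave 7 to 21 higher, 9 to 14 lower and 4875 to 6217 of all genes. Array numbers are shared by the groups, but same-numbered arrays deviated together only weakly (correlations of 0.081, 0.036 and 0.090), though each correlated best with its own number. With the replicate block 16 members were higher, 15 lower and 6277 of all genes passed. Offsets, other filters, the variance model without a trend and quantile normalization kept these counts within 1.5 times. Of 39 named genes that passed, 7 kept direction and call in all alternatives fitted for them (Cox6b2, Ndufs5, Ndufb1, Ndufaf8, Bcs1l, Pdk2 and Tfb1m). Of 928 pairs of a gene and an alternative 760 kept direction and side of the threshold, 108 lost the call, 19 gained it and 41 changed sign. With median centring the sign turned for Atp5b (-0.32), Atp5g2 (-0.81), Atp5g3 (-0.56), Coq8b (-0.11), Cox18 (-0.10), Cox4i1 (-0.55), Cox4i2 (-0.39), Cox6a1 (-0.40), Cox6a2 (-0.016), Cox6b1 (-0.58), Cox7a2 (-0.52), Cox8a (-0.040), Cox8c (-0.048), Ndufs1 (-0.31), Ndufs3 (-0.23), Uqcr10 (-0.15), Uqcrh (-0.21) and Uqcrq (-0.14). With quantile normalization it turned for Atp5g1 (0.12), Atp5g3 (-0.18), Cox4i2 (-0.35), Cox7a2 (-0.15) and Ndufa4 (0.12), with cyclic loess for Atp5g1 (0.11), Cox4i2 (-0.34) and Ndufa4 (0.13), and with array weights for Ndufa4l2 (0.45) and Ndufa4 (0.029). Over the mean of all probe sets it turned for Ndufb2 (0.32), Pdk1 (0.66), Sdha (0.098), Sdhd (0.033) and Uqcr10 (-0.99), and with knockout array 1 alone for Atp5g1 (0.065) and Atp5g2 (-0.32). With 1 array left out Atp5g2 ran from -0.093 to 0.17, Ndufa4 from -0.19 to 0.067 and Ndufa4l2 from -0.32 to 0.41.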

Other observations

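Probe sets listed with several genes are no members, and 10 of them name an oxidative phosphorylation gene. Those for Ndufa11 and Ndufa11b gave differences of 0.57 (means of 2859 and 4222) and, on a dim one, 0.98 (245 to 479). The one for Ndufs6 and Ndufs6b gave -0.13 (3802 to 3477), and the one for Ndufab1 and its pseudogene gave -0.26 (3703 to 3093). The one for Ndufb2 and Adck2 read 158 and 364, a difference of 1.19.

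Genes next to the members with the largest differences in RefSeq's gene order were read at the same probe set rule. Kmt5c, a histone methyltransferase beside Cox6b2, passed as higher (0.92 ± 0.18, SE, n = 3 per group, adjusted p = 0.00322 by limma), as did Tmem238 (0.89, adjusted p = 0.00635), while Hspbp1, a cochaperone, did not pass (0.025). Brsk1 (2.57), Tmem150b (1.13), Il11 (2.92) and Tmem190 (0.78), also near Cox6b2, read higher but were under the filter and not tested. Beside Ndufs5, Akirin1 passed as lower (-0.71 ± 0.14, adjusted p = 0.00327), the dim Bmp8a, which was above the intensity filter only through the knockout arrays, had means of 84.7 and 180, and Macf1 (-0.38) and Mycbp (0.046) did not pass. Oxct2a (1.28) and Rhbdl2 (0.31) were under the filter there and not tested.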
